A study of Drosophila melanogaster with 3 samples.

Results

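The nicotinic acetylcholine receptor (nAChR) subunits of Drosophila melanogaster are encoded by 10 genes, nAChRalpha1 to nAChRalpha7 and nAChRbeta1 to nAChRbeta3, and their transcripts were followed here in adult heads in which protein kinase A (PKA) had been manipulated. Members were taken by gene symbol or synonym from the platform's probe-to-gene table, by name and not by value, although the family was chosen with earlier results of these data known. Of the 10 genes, 9 were on 12 probe sets that name a single gene, out of 11981 genes so named on the array, and nAChRalpha6 was not analysed here. For a gene with several probe sets the brightest served as its main value. Comparisons used the brighter 50% of genes (5991, ranked on mean log2 signal), which included 8 subunits; the remaining one, nAChRalpha1, was dimmer and is described apart.

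RNA came from whole heads, and each of 3 genotypes was hybridized to 1 one-colour Affymetrix array. The control was heterozygous for p247-Gal4, a driver for the mushroom bodies, and tub-gal80[ts], which supplies the Gal4 repressor Gal80 in a temperature-sensitive form from a tubulin promoter. To these the PKA-DN flies added UAS-PKA-DN, encoding dominant-negative PKA, and the PKA-CA flies added UAS-PKA-CA, encoding constitutively active PKA. Driver and repressor were thus shared by all 3 genotypes, as were rearing at 18 °C, the shift to 32 °C for 12 to 16 h and an age of 4 to 6 days. By their names PKA-DN should lower and PKA-CA should raise activity, and they are read that way here; the submitted design text pairs them the other way round, and activity was not among the values used. The driver acts in the mushroom bodies, which are a small brain region, and the share of each whole-head signal that comes from the cells it targets was not measured. In such bulk RNA, fewer cells of a type and less RNA per cell cannot be told apart.

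Nicotinic receptors are pentameric cation channels of the Cys-loop family that open when acetylcholine binds. In insects acetylcholine is the main fast excitatory transmitter of the brain. In the mushroom bodies, the centre for olfactory learning, the intrinsic neurons (Kenyon cells) receive cholinergic input from olfactory projection neurons through nicotinic receptors and release acetylcholine themselves. Alpha subunits carry an adjacent cysteine pair that contributes to the agonist site and beta subunits lack it. Receptors are built from mixtures of subunits, and several of them are targets of neonicotinoid or spinosyn insecticides. The genes nAChRalpha1, nAChRalpha2 and nAChRbeta2 lie in a cluster on chromosome arm 3R, with CG31128 as the only other protein-coding gene that starts between them. The other members are scattered over the X chromosome and the arms 2L and 3L.

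With 1 array per genotype there was no replicate error and no test, and every ratio below is a description of these arrays. A scale for reading the ratios was taken from genes with several probe sets on the same arrays. Both probe sets of a pair read the same RNA, so this scale leaves out variation between samples. For 304 genes with at least 2 probe sets above the signal limit of the comparison, the log2 ratios of the brightest pair of probe sets differed by a median of 0.18 in the comparison of PKA-DN with control, 0.20 in that of PKA-CA with control and 0.22 between the PKA arrays. The same differences reached 0.47, 0.59 and 0.56 at the 90th percentile, and the pair had the same sign in 60.9%, 54.9% and 59.2% of genes. Of the 24 ratios of the 8 subunits, 22 were smaller in size than the 90th percentile of their comparison. Signals of different probe sets depend on their own probes, so they are compared between arrays and not between genes.

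Among the alpha subunits outside the alpha7-like group, nAChRalpha3 differed most between the arrays. This subunit, which is known to assemble with nAChRbeta1, had a signal of 469 in control, 355 in PKA-DN and 628 in PKA-CA heads. The PKA-DN array was thus lowest and the PKA-CA array highest, with log2 ratios over control of -0.40 and 0.42. Only 2.37% of the genes compared had a wider range over the 3 arrays. The neonicotinoid-target subunit gene nAChRalpha2 read 608, 443 and 525 in control, PKA-DN and PKA-CA heads. Both transgenic arrays were lower than the control here, by log2 ratios of -0.46 and -0.21, which made nAChRalpha2 the exception among the 8 subunits compared in PKA-CA heads. Its probe set carries the suffix that Affymetrix gives to sets shared between transcripts of more than 1 gene, so other transcripts could contribute to it. The signals of nAChRalpha4, the gene mutated in the short-sleeping redeye flies, were 458, 392 and 503. Its log2 ratios over control were -0.22 and 0.13, with the order of arrays seen for nAChRalpha3 but a narrower range.

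The alpha7-like subunits were represented by nAChRalpha5 and nAChRalpha7, which resemble the vertebrate alpha7 subunit. For nAChRalpha5 the signals were 1222, 1341 and 1418 in control, PKA-DN and PKA-CA heads. Both transgenic arrays were slightly higher than the control, by log2 ratios of 0.13 and 0.21. For nAChRalpha7, which is required in the giant fibre escape circuit, the signals were 596, 512 and 606. Here PKA-DN was lower than the control by a log2 ratio of -0.22, while PKA-CA was close to it at 0.03, a value that crossed 0 to -0.003 when the arrays were centred on their medians.

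Among the beta subunits, nAChRbeta1, in which mutations give neonicotinoid resistance, had signals of 2459.7 in control, 2229 in PKA-DN and 3331 in PKA-CA heads. The PKA-CA array stood above both others, with log2 ratios of 0.44 over control and 0.58 over PKA-DN. Its other probe set read 588, 601 and 822, with log2 ratios of 0.48 over control and 0.45 over PKA-DN, so both probe sets placed PKA-CA highest. They disagreed on PKA-DN against control, at -0.14 for the brighter and 0.03 for the other. The signals of nAChRbeta2 were 484, 498 and 536, the narrowest range of the 8 subunits, with 74.4% of the genes compared varying more. The divergent subunit gene nAChRbeta3 had 535, 458 and 537. Its PKA-DN array was lower than the control by a log2 ratio of -0.22, and its PKA-CA array was level with it at 0.0054, a value whose sign turned with cyclic loess (-0.009) and with centred arrays (-0.02).

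The dim probe sets give little information. The brighter probe set of nAChRalpha1 read 97.3, 79.0 and 78.1 in control, PKA-DN and PKA-CA heads, against 77.0, 77.8 and 70.9 for the highest of 99 Drosophila (Dm) control probe sets. Its log2 ratios over control, -0.30 and -0.32, therefore rest on signals near background. The other probe sets of nAChRalpha1, at 34.4, 20.0 and 27.3, and of nAChRalpha4, at 21.98, 7.58 and 11.3, were below that control level on all 3 arrays, and no fold is read from them.

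**Figure D1:**
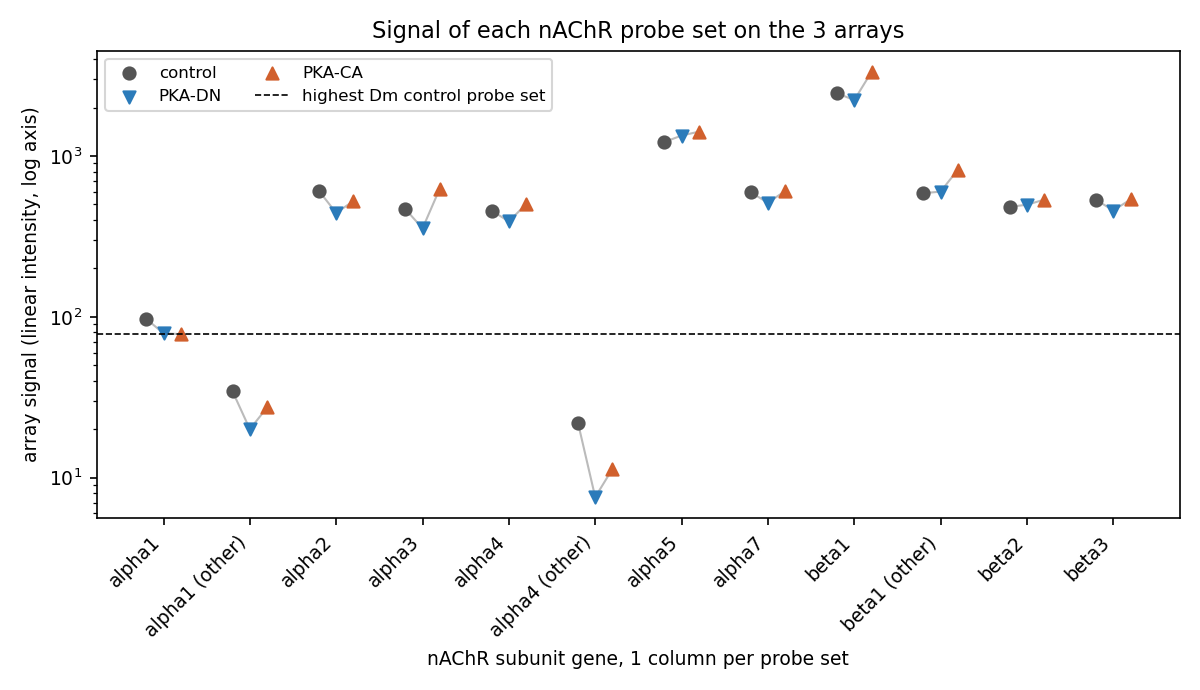
Array signal (linear intensity on a log axis) of the 12 nAChR probe sets on the control (circle), PKA-DN (downward triangle) and PKA-CA (upward triangle) arrays, 1 column per probe set, with "other" marking a gene's dimmer probe set. The dashed line is the highest Dm control probe set over the 3 arrays (77.8); both probe sets of beta1 have their highest point in PKA-CA, and the dimmer sets of alpha1 and alpha4 lie below the line.

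The comparison of PKA-DN with control sets flies with UAS-PKA-DN against flies without it. Lowered PKA activity cannot be told apart there from other effects of carrying the transgene or of genetic background. Most subunits were somewhat lower in PKA-DN heads: 6 of the 8 compared lay below the control (alpha2, alpha3, alpha4, alpha7, beta1 and beta3), where 51.7% of all 5991 genes did. The median log2 ratio of the subunits was -0.22, against -0.01 over all genes compared. A log2 difference of 0.32, which is 25% higher or 20% lower, served as the smaller threshold for counting, and 1.5-fold as the larger. Below -0.32 were nAChRalpha2, at 0.73 of the control signal, and nAChRalpha3, at 0.76. These are 2 of 8 members, where 7.66% of all genes passed that threshold. No subunit lay above 0.32, as 6.13% of genes did, and none passed 1.5-fold, which 1.49% of genes did upward and 1.44% downward. The members above the control were nAChRalpha5 and nAChRbeta2, at 1.10 and 1.03 times its signal. By class, 4 of 5 alpha subunits and 2 of 3 beta subunits were lower, with median log2 ratios of -0.22 and -0.14.

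The second comparison, of PKA-CA with control, sets flies with UAS-PKA-CA against flies without it, and the same limit holds for raised activity. Here 7 of the 8 subunits were higher than the control, against 49.5% of all genes, with nAChRalpha2 as the exception at 0.86 of the control signal. The count rests in part on nAChRalpha7 and nAChRbeta3, whose ratios were within 0.03 of 0 and whose signs turned under other scalings. The median log2 ratio was 0.14, against -0.003 over all genes. The reference genes RpL32 and eIF4A had -0.11 and -0.23, but with control signals of 21147 and 19884.5 they were far brighter than any subunit. Above 0.32 were nAChRbeta1, at 1.35 times the control, and nAChRalpha3, at 1.34 times, 2 of 8 members where 7.85% of genes passed. No subunit lay below -0.32, as 9.66% of genes did, and none was 1.5-fold higher or lower, as 1.72% and 1.89% of genes were. The remaining higher members were nAChRalpha5 at 1.16 times the control, nAChRbeta2 at 1.11 and nAChRalpha4 at 1.10.

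**Figure D2:**
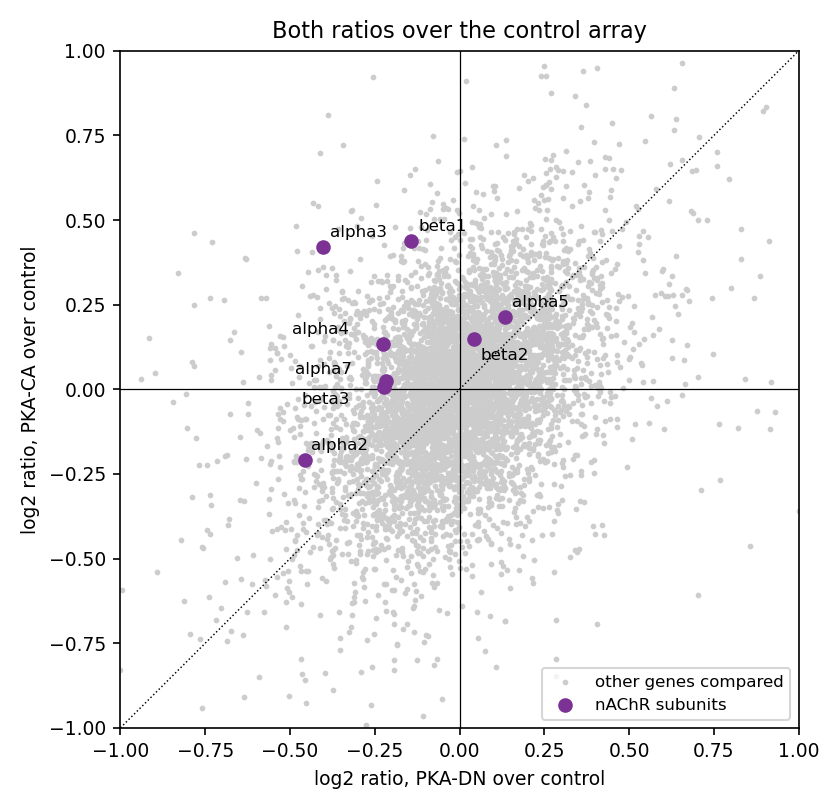
Log2 ratio of PKA-CA over control against that of PKA-DN over control for the 8 nAChR subunits (purple) and the other genes compared (grey), with 54 genes beyond 1 on either axis outside the plot; both axes share the control array, and the dotted line marks equal ratios. All 8 subunits lie above the dotted line, that is, higher in PKA-CA than in PKA-DN, with alpha3 and beta1 farthest from it.

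The PKA arrays were then set against each other, without the control array. Each ratio here equals the difference between the ratios over control, so it adds no new measurement. PKA activity cannot be told apart here either from other effects of the transgenes or of genetic background. All 8 subunits compared were higher in PKA-CA, where 50.2% of all genes were. They remained so under the 4 other scalings tried and with 64 added to each signal. Adding 64 cannot change a sign, and centring or percentile scaling shifts all ratios of a comparison by the same amount. Of the scalings, only quantile normalization and cyclic loess could shift the members differently. The median log2 ratio was 0.24 (0.21 to 0.24 under all of these settings), against 0.001 over all genes. The spread ran from 0.08 for nAChRalpha5 and 0.11 for nAChRbeta2 to 0.58 for nAChRbeta1 and 0.82 for nAChRalpha3. In folds, nAChRalpha3 was 1.77 times, nAChRbeta1 1.49 times and nAChRalpha4 1.28 times the PKA-DN signal. These are 3 of 8 members above 0.32, where 9.70% of genes passed upward and 9.68% downward. With 64 added to each signal nAChRalpha4 fell to 0.313, under that threshold. At 1.5-fold or more higher there was 1 member, nAChRalpha3, where 2.22% of genes were, and nAChRbeta1 lay just under that fold. Of all genes, 0.718% had a higher ratio than nAChRalpha3 and 2.30% a higher ratio than nAChRbeta1. As deposited, these were the members whose ratio was larger than the 90th percentile difference of 0.56 between probe sets of a gene. The other 6 ratios were smaller. For nAChRbeta1 the excess was narrow and held for its brighter probe set only, as its other probe set had 0.45. Its ratio was also below 0.56 with centred arrays (0.547) and with its probe sets averaged (0.516). The dim nAChRalpha1 had a ratio of -0.02.

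**Figure D3:**
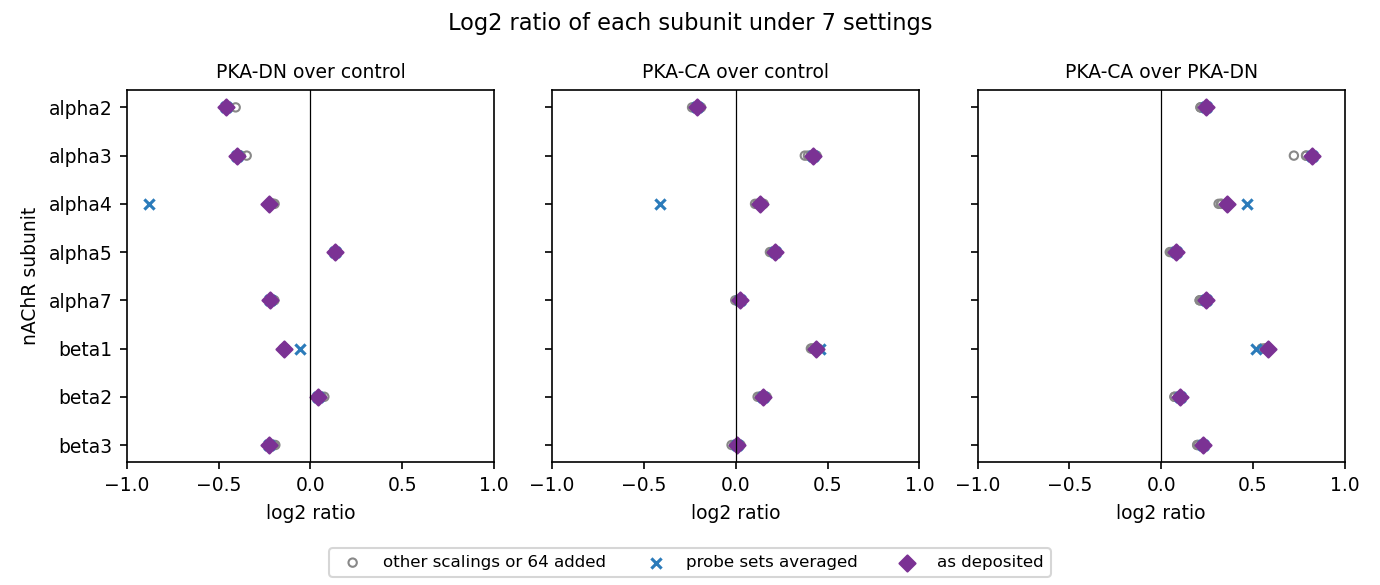
Log2 ratios of the 8 nAChR subunits in the 3 comparisons with the deposited values (diamonds), under 4 other scalings or with 64 added to each signal (circles), and with a gene's probe sets averaged (crosses, which coincide with the diamond for genes with a single probe set). The widest shift is that of alpha4 on averaging, to -0.88 over control in PKA-DN and -0.41 in PKA-CA. Averaging brings in its dimmer probe set, which lay below the highest Dm control probe set.

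Read over all 3 arrays, the members formed several patterns. For 5 of the 8 (alpha3, alpha4, alpha7, beta1 and beta3) the order was PKA-DN lowest, control in the middle and PKA-CA highest, an order shown by 19.1% of all genes. In alpha7 and beta3 this order rests on log2 ratios of PKA-CA over control of 0.03 and 0.0054, whose signs turned with centred arrays. For alpha5 and beta2 the control was lowest and PKA-CA highest, as for 16.3% of genes, and for alpha2 PKA-DN was lowest and the control highest, as for 14.8%. The nearest pair was nAChRalpha7 and nAChRbeta3, at a Euclidean distance of 0.014 between their log2 signals, each centred on its own mean over the 3 arrays. The genes nAChRalpha5 and nAChRbeta2 followed at 0.067. The farthest pair was nAChRalpha3 and nAChRalpha5, at 0.54. Within the 3R cluster, nAChRalpha2 and nAChRbeta2 differed by 0.36 and ordered the arrays differently; the third gene of the cluster, nAChRalpha1, was too dim to place.

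By the same distance, the genes most like nAChRalpha3, the member with the widest range, were CG7778 (0.025), CG8086 (0.04) and CG9498 (0.047) among 5990 genes searched. In all, 15 genes lay within 0.1 of it. Those most like nAChRbeta1, the brightest member, were Syt7 (0.0046), a synaptotagmin family gene, enc (0.017) and CG13506 (0.017), and 59 genes lay within 0.1. For Syt7 the ratios to control were -0.14 (PKA-DN) and 0.44 (PKA-CA) on the log2 scale, the same to 2 decimals as the brighter probe set of nAChRbeta1. The other probe set of nAChRbeta1 had 0.03 and 0.48, so the match holds for the brighter one only. The nearest receptor subunit to each of nAChRalpha3 and nAChRbeta1 was the other, at 0.21, but 74 genes were closer than that to nAChRalpha3 and 330 to nAChRbeta1. These distances rest on 3 arrays and are descriptive.

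Genes that supply or remove acetylcholine were also higher in PKA-CA than in PKA-DN heads. This held for all 4 listed, choline acetyltransferase (ChAT), the vesicular transporter (VAChT), the choline transporter (ChT) and acetylcholinesterase (Ace), with a median log2 ratio of 0.28 and a range of 0.14 to 0.30, though none reached 0.32. Over control they split. ChAT, which makes acetylcholine, had signals of 2485 in control, 1778 in PKA-DN and 2168 in PKA-CA heads, the control being highest. Ace, which breaks it down, had 1518, 1113 and 1339, again with the control highest and PKA-DN lowest. VAChT, by contrast, read 2242, 2189 and 2699, with PKA-CA highest.

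Partner genes of the receptor were examined next. Of 7 genes for assembly, cleft and editing factors, 6 were bright enough to compare, and 5 of those 6 were higher in PKA-CA than in PKA-DN, with a median log2 ratio of 0.18. The chaperone gene RIC-3 had 3042, 3106 and 3644 in control, PKA-DN and PKA-CA heads, and quiver (qvr, or sleepless), encoding a Ly6 protein that modulates potassium channels and nicotinic receptors, had 3721, 3583 and 4294. Both were highest in PKA-CA. The synaptic cleft proteins were Hasp, at 0.39 for PKA-CA over PKA-DN and the only partner past 0.32, and hikaru genki (hig), at 0.04. Unc50 had 0.12, and Adar, the RNA editing enzyme that acts on many channel transcripts, had -0.04. The dim twit, another Ly6 gene, had 0.03. Over control the partners had median log2 ratios of -0.07 (PKA-DN) and 0.14 (PKA-CA), and none of the 6 passed 0.32 either way on either array.

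Other acetylcholine and Cys-loop receptor genes were set beside the nicotinic subunits. The muscarinic receptor gene mAChR-B read 393, 329 and 445 in control, PKA-DN and PKA-CA heads, the order seen for nAChRalpha3. mAChR-C was below the highest Dm control probe set on every array, and mAChR-A was not analysed here. Of 12 other Cys-loop subunit genes, 6 were compared. All 6 were lower in PKA-DN than in control, with a median log2 ratio of -0.09, and 3 were higher and 3 lower in PKA-CA, with a median of -0.04. Against PKA-DN, 4 were higher in PKA-CA and 2 lower, and their median was 0.12. Examples are the GABA receptor subunits Rdl at 0.25 and Lcch3 at 0.34, and the histamine-gated channel ort at -0.02.

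**Figure D4:**
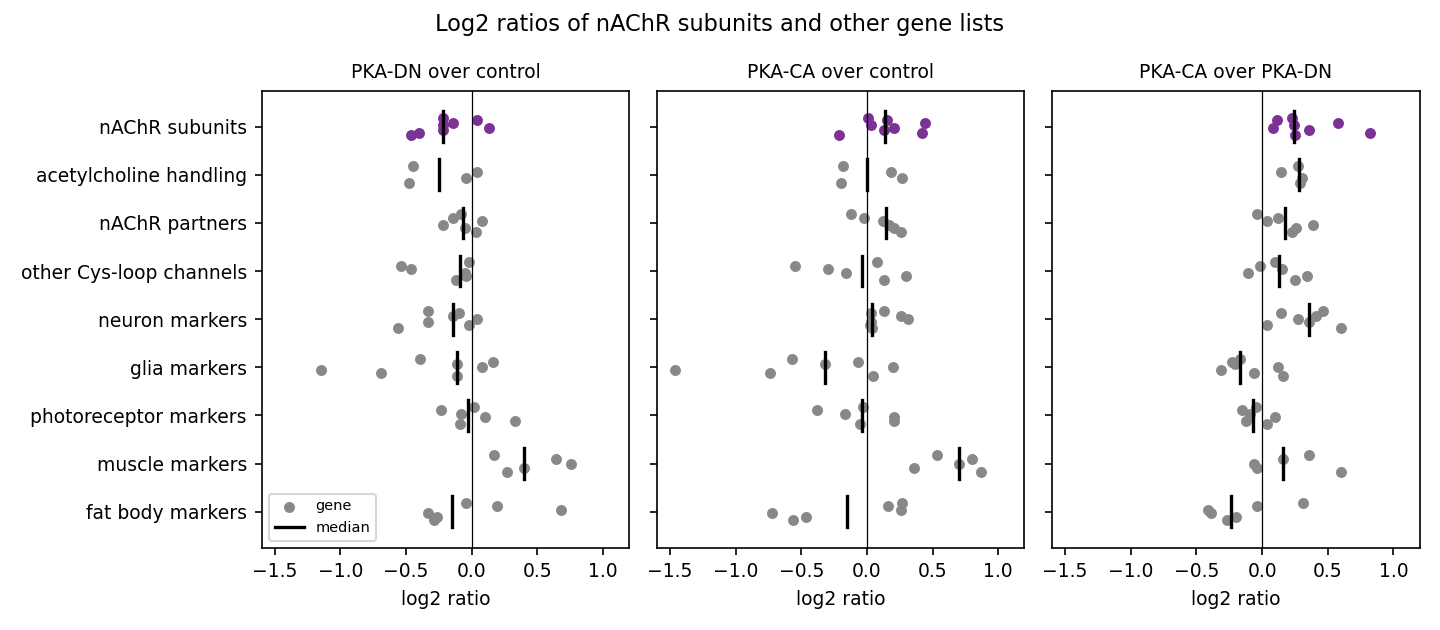
Log2 ratios in the 3 comparisons for each gene compared (points) and the list median (black line), for nAChR subunits (purple) and 8 other lists (grey). For PKA-CA over PKA-DN the nAChR subunits, the acetylcholine handling genes and the neuron markers all lie to the right of 0, while 5 of 7 glia and 5 of 6 fat body markers lie to its left.

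General markers of neurons were higher in PKA-CA than in PKA-DN heads as well. Of 8 neuron markers 7 were compared, and all 7 were higher, with a median log2 ratio of 0.36 (0.04 for nSyb to 0.60 for elav) against 0.24 for the subunits. In PKA-DN over control 6 of the 7 were lower, where 51.7% of all genes were, with a median of -0.14. In PKA-CA over control all 7 were higher, where 49.5% of all genes were, with a median of 0.04. Of these last ratios, those of nSyb (0.02), brp (0.03), Syn (0.03) and elav (0.04) were close to 0. The summed signal of the 7 neuron markers was 20053 in control, 18355 in PKA-DN and 22095 in PKA-CA, next to 6832, 6228 and 8084 for the 8 receptor subunits. Brighter probe sets weigh more in such sums, and nAChRbeta1 alone read 2459.7, 2229 and 3331. No marker of neurons was near background. Muscle markers had median ratios to control of 0.40 (PKA-DN) and 0.70 (PKA-CA), with summed signals of 6178, 8535 and 9390.2. Glia markers had -0.11 and -0.32 (summed signals 21649, 19873 and 18048), photoreceptor markers -0.03 and -0.04 (96226, 91736 and 87120.4) and fat body markers -0.15 and -0.15 (139119, 133635 and 114211). The fat body list was mixed, with 4 of 6 genes lower than control in PKA-DN and 3 of 6 in PKA-CA. The yolk protein genes Yp1, Yp2 and Yp3 were lower on both arrays, while Lsp2 (0.68 and 0.26) and fit (0.19 and 0.16) were higher on both. The fat body marker Fbp1 lay below the highest Dm control probe set on every array. The part of tissue composition in the receptor ratios was not tested.

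Ratios between the PKA arrays also differed with gene length. The subunit genes compared had RefSeq lengths of 1968 bp (nAChRbeta3) to 90970 bp (nAChRalpha3), with a median of 14009 bp against 3073 bp over the 5981 genes compared that have a length. Among the 1496 genes in the upper 25% by length, 70.5% were higher in PKA-CA than in PKA-DN, with a median log2 ratio of 0.12, and among the 4485 others 43.4% were, with a median of -0.04. For PKA-CA over control 63.3% of the longer genes and 44.8% of the others were higher, with medians of 0.07 and -0.03. For PKA-DN over control 39.6% and 51.1% were higher, with medians of -0.06 and 0.01. Of the subunits, the 4 longer genes (alpha3, alpha4, alpha5 and alpha7) had a median of 0.30 for PKA-CA over PKA-DN and the 4 shorter genes (alpha2, beta1, beta2 and beta3) one of 0.24, with all members higher in both sets. The 3'/5' signal ratios of the array's quality probes were 1.70, 2.05 and 2.0 for GAPDH in control, PKA-DN and PKA-CA heads, 1.79, 2.29 and 1.70 for actin, and 2.51, 2.33 and 3.01 for eIF-4a. Their part in the receptor ratios was not tested.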

How the data were processed

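RNA from adult heads of 3 genotypes was measured on 1 array each. The deposited values were linear intensity, 1 signal per probe set, computed by the authors in MAS5, according to the submitters' processing notes (version not given in the sources used here). After trimming 2% of the 18952 probe sets at each end, all 3 arrays had a mean of 500.0, which shows a common scaling before deposit. Values were used as deposited and log2-transformed without a constant; precision is limited by the number of arrays. Of 14049 probe sets in the platform's gene table, the 13646 with 1 gene symbol were used, with symbols of 13543 updated through RefSeq identifiers (Release 6 plus ISO1 MT, used for names, lengths and neighbours only). Genes with a mean signal above 254 were compared. Dim signals were judged against 99 of 100 Dm control probe sets, leaving out 1 with a signal above 1000.

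Genes are named by list: all receptor subunits, 4 lists of pathway genes, 6 lists of markers and reference genes, and for 2 members the 3 genes of nearest pattern. Of 8 reference genes 2 were compared, RpL32 and eIF4A, with log2 ratios of -0.07 and -0.13 for PKA-DN over control, -0.11 and -0.23 for PKA-CA over control, and -0.04 and -0.09 between the PKA arrays. Members and lists were chosen with earlier results of these data known. Ratios, medians and counts were computed in Python 3.11.15 with pandas 2.3.3, and quantile and cyclic loess normalization with limma 3.58.1 in R 4.3.3. The code was tested on simulated data. Alternatives were 4 other scalings, 64 added to each signal, averaged probe sets and 2 other signal filters. Sequences of the members were not used here.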

Additional observations from a re-analysis of the deposited data

How the results depend on the processing

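With 1 array per genotype no spread between replicates is known, so a shift of over 0.1 on the log2 scale was counted as a move. Under the 4 other scalings and with 64 added, the median log2 ratios stayed within that limit and the counts past 0.32 (log2) within 1.5 times. With 64 added, the count above 0.32 for PKA-CA over PKA-DN fell from 3 to 2, as nAChRalpha4 had 0.313. Cyclic loess raised the count at 1.5-fold for PKA-CA over PKA-DN from 1 to 2, as nAChRbeta1 reached 0.585. Averaging all probe sets of a gene brought in the probe set of nAChRalpha4 that lay below the highest Dm control probe set. This put 1 subunit past 1.5-fold in PKA-DN over control (nAChRalpha4, -0.88) and 1 subunit below -0.32 in PKA-CA over control (nAChRalpha4, -0.41). Keeping the upper 25% of genes by signal left 2 subunits, nAChRalpha5 and nAChRbeta1. The median log2 ratio was then -0.004 in PKA-DN over control and 0.326 in PKA-CA over control, with 0 subunits below -0.32 in the former, 1 subunit above 0.32 in the latter and 1 in PKA-CA over PKA-DN, and 0 past 1.5-fold there. With no signal filter, 9 subunits were described, with medians of -0.22, 0.13 and 0.24. Of 162 ratios of single subunits under other settings, 151 stayed within 0.1 and 11 moved, all of nAChRalpha1 or nAChRalpha4. Part of the 151 could not move. Averaging leaves genes with a single probe set unchanged, and centring or percentile scaling shifted all ratios of a comparison alike, by less than 0.1. Signal over background limited nAChRalpha1, whose ratio of -0.02 for PKA-CA over PKA-DN turned to 0.10 with quantile normalization and 0.11 with cyclic loess. No paired analysis was possible because each genotype had 1 array.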
